A study of Mus musculus with 32 samples.

Results

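The genes of the large (60S) ribosomal subunit proteins were examined in the frontal cortex of mice that carried the gut microbiota of a primate donor. They were taken by name: every row of the count table whose symbol starts with Rpl and lacks the pseudogene suffix -ps, the stalk genes Rplp0, Rplp1 and Rplp2 included, and without rows named Gm or Rik. This gave 55 of 23958 rows. Of these 55 genes, 49 passed the filter on low counts, which 12651 genes passed in all, and each of the 49 lay above the filter level by its median in all 3 groups. The groups were mice inoculated with human microbiota (12 mice, batches A and B), with squirrel monkey microbiota (Saimiri boliviensis, 8 mice, batches C and D) and with macaque microbiota (Macaca mulatta, 12 mice, batches E and F). The tissue was the infralimbic and prelimbic cortex. The question of the study is whether gut microbiota of different primate species alter expression in the mouse brain. The labels give neither strain, age and housing nor the number of donors, and no group without a transferred microbiota was analysed here.

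The large subunit holds the peptidyl transferase centre, where the ribosome joins amino acids, and the tunnel through which the new protein leaves. Its proteins wrap the ribosomal RNA, form bridges to the small subunit and carry a stalk that recruits elongation factors. Each ribosome takes 1 copy of most of these proteins, and their mRNAs, which begin with a run of pyrimidines (the 5′TOP motif), are known to be translated together under control of mTOR. In neurons, mRNAs of ribosomal proteins are abundant in dendrites and axons as well as in the cell body.

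Library totals were 1204598 to 2089308 counts in human-microbiota mice, 1193113 to 1588716 in squirrel monkey-microbiota mice and 1035036 to 1673882 in macaque-microbiota mice. Each of the 6 batches, and each of the 5 plate columns read from the library names, held mice of 1 donor species, so donor species, batch and plate column cannot be told apart in the comparisons between groups. The labels do not say which mice shared a cage, so the p-values measure the spread between mice only. The summed counts of the 55 genes took 1.20% to 1.42% of a library in human-microbiota mice (median 1.31%), 1.13% to 1.38% in squirrel monkey-microbiota mice (median 1.30%) and 1.04% to 1.32% in macaque-microbiota mice (median 1.16%). The cortical excitatory neuron markers Slc17a7, Neurod6, Tbr1 and Camk2a, all detected in every group, summed to 1772 to 2722 CPM (counts after scaling all libraries to the same total) with human, 1745 to 2184 CPM with squirrel monkey and 1898 to 2642 CPM with macaque microbiota.

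The sequences around the transcription start show how far the genes carry the letters of a 5′TOP start at the annotated position. RefSeq (GRCm38.p6) lists a start that is used here for 42 of the 55 genes. Where a gene has several listed starts, a start with the motif described below was preferred. Where none had it, the start with the lowest genome coordinate was shown, which need not be the main start. Each line gives 10 bases before the start and 15 from it on, 5′ to 3′ on the gene's strand, with the motif, a C at the start followed by 4 pyrimidines, in capitals. Rpl28 and Rpl15 are shown because they have the motif and were higher with human than with macaque microbiota. Rplp2, Rpl35 and Rpl38 have it and did not pass that test, and Rpl24 and Rpl19, which were higher, lack it at this position.
Rpl28, chr7:4792955-4792979, plus strand: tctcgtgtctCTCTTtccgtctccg
Rpl15, chr14:18270972-18270996, minus strand: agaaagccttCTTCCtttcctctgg
Rplp2, chr7:141447641-141447665, plus strand: cagcgtcttcCTTTCgccgccggac
Rpl35, chr2:39005117-39005141, minus strand: ccgccctttcCTCTTtctctcgaac
Rpl38, chr11:114668570-114668594, plus strand: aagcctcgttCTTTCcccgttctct
Rpl24, chr16:55966265-55966289, plus strand: gctgttgctaggaaacagactgggc
Rpl19, chr11:98026700-98026724, plus strand: aaacgccctcactgcgcatgtgcgc
The motif, read on the gene's strand, stood at a listed start of 8 of the 42 genes and at 2.51% of 32851 listed starts of all genes. A run of 8 pyrimidines beginning with C within 20 bases of a start, which can overlap the motif, was found in 20 of the 42 genes, among them all 8 with the motif, and at 12.6% of all starts. Among genes with an entry, the motif was present in 2 of the 22 that were higher with human than with macaque microbiota and in 5 of the 15 tested that were not, and the longer run in 13 and 6. A gene counted if any of its listed starts had the motif or the run, while the shares of all genes are per start. The counts of genes and these shares are therefore not alike in unit. A listed start is an annotation and was not measured here.

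With human rather than macaque microbiota, 28 of the 49 tested genes were higher and 0 were lower, at an adjusted p under 0.05 in edgeR's quasi-likelihood test. Over all 12651 genes, 4.47% were higher and 3.54% lower. At an unadjusted p under 0.05 there were 32 of the 49, against 23.1% of all genes, of which Rpl35 and Rplp2 had lower means with human microbiota, and DESeq2 called 0 lower. The median log2 fold change of the 49 genes was 0.26, against -0.0010 over all genes tested, and 41 of the 49 values were positive. The size was uneven: it ranged from 1.29 for Rpl3 to -0.27 for Rpl35, so that genes of the same particle stood more than 1 log2 unit apart. The count was 18 with counts summed per batch, 18 without batch E and 17 without batch F. Without batch B, 19 of the 28 stayed called. Both batch means with human microbiota lay above both batch means with macaque microbiota for 35 genes (71.4%), as against 23.9% of all genes. Every human-microbiota mouse lay above every macaque-microbiota mouse for Rpl11, Rpl19, Rpl28, Rpl37 and Rplp1, which is 10.2% of the 49 genes, as against 0.15% of all genes.

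**Figure D1:**
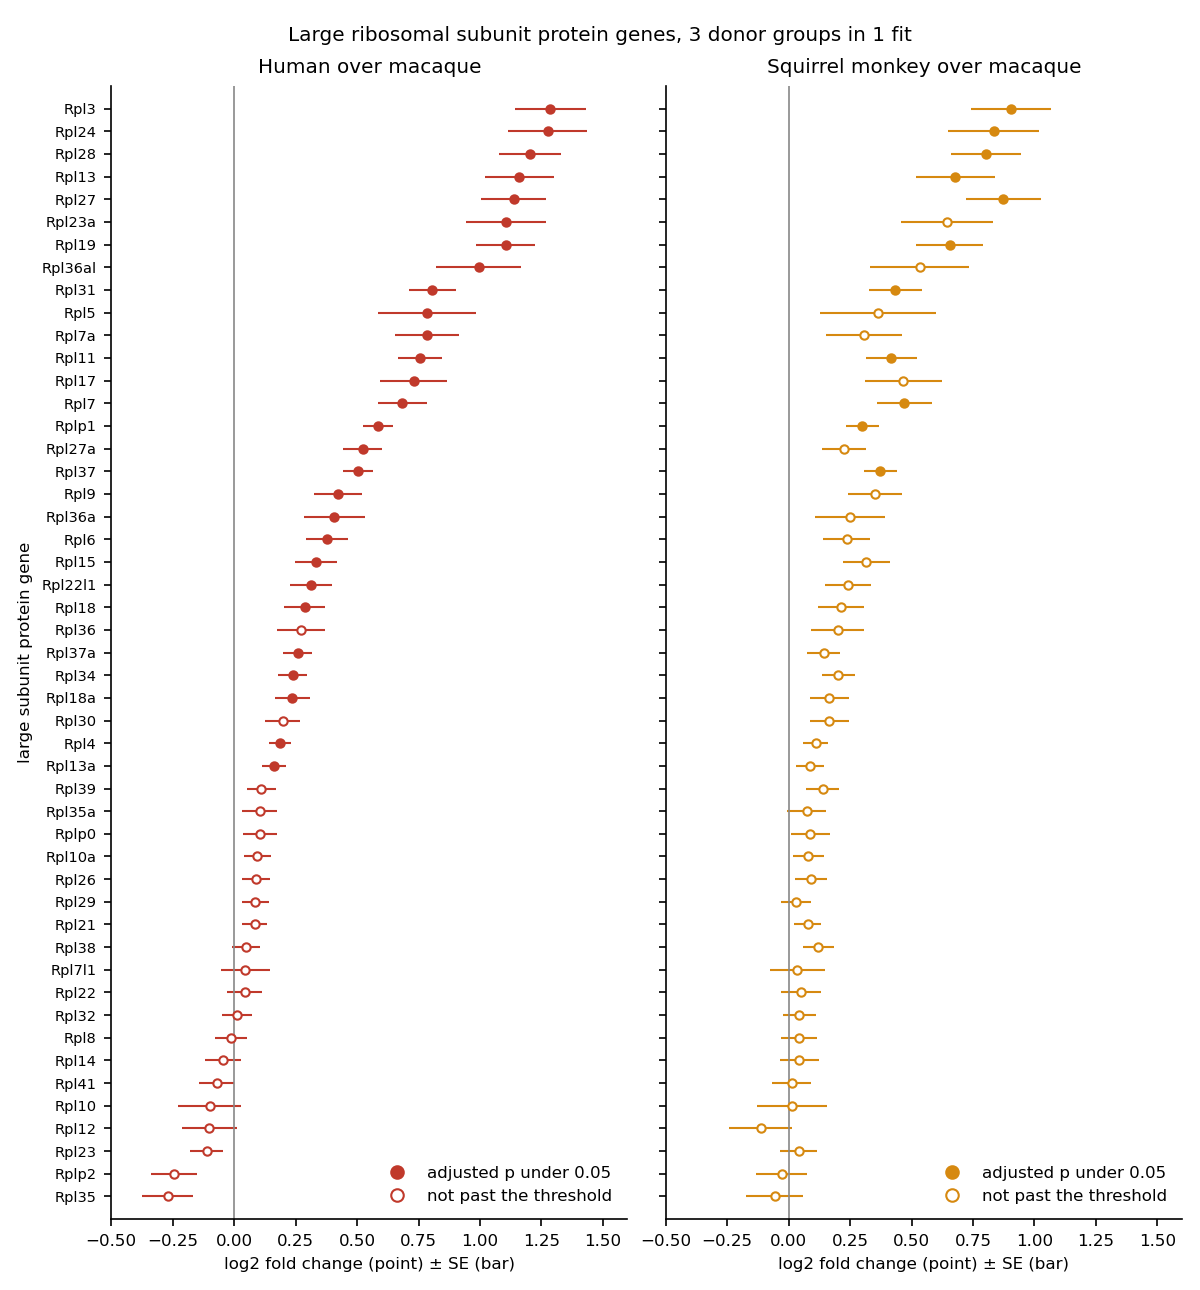
Log2 fold change (x axis, point) and its standard error (bar) of the 49 tested genes (y axis, sorted by the left panel), for human over macaque microbiota on the left and squirrel monkey over macaque microbiota on the right, with filled points at an adjusted p under 0.05. The left panel has 28 filled points from Rpl3 at 1.29 down to Rpl13a at 0.16, the right panel has 11, and neither has a filled point below 0. The panels share the macaque-microbiota mice.

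Rpl3, whose protein reaches towards the peptidyl transferase centre, gave the largest difference. Its level was 83.6 CPM in the lowest human-microbiota mouse, 180.6 at the median and 237 in the highest, against 84.2, 115 and 205 CPM with squirrel monkey microbiota and 49.8, 71.5 and 91.3 CPM with macaque microbiota. All human-microbiota mice but 1 lay above the highest macaque-microbiota mouse. The means were 168 ± 46.7 CPM with human (SD, n = 12), 130 ± 42.4 with squirrel monkey (n = 8) and 68.8 ± 12.5 with macaque microbiota (n = 12). The log2 fold change of human over macaque was 1.29 ± 0.15 (SE, edgeR adjusted p = 1.3e-07) and that of squirrel monkey over macaque 0.90 ± 0.16 (adjusted p = 0.0032).

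Rpl8 and Rpl10, also genes for proteins of the catalytic region, did not pass the test, and no full list of such genes was read. Rpl8, which lies at the peptidyl transferase centre and in a bridge to the small subunit, averaged 675 ± 95.2 CPM with human, 701 ± 65.2 with squirrel monkey and 681 ± 66.1 with macaque microbiota, and the groups overlapped over most of their range. Its log2 fold change of human over macaque was -0.01 ± 0.07 (edgeR adjusted p = 0.94). Rpl10, which joins the subunit late in its assembly, was at 23.6 ± 7.03 CPM with human, 25.0 ± 4.30 with squirrel monkey and 25.0 ± 3.82 with macaque microbiota, with a log2 fold change of human over macaque of -0.10 ± 0.13 (adjusted p = 0.70). Counts of Rpl10 are uncertain, since its -ps rows held 20.6% of the reads of Rpl10 and these rows together. Within each library, Rpl3 counts were 26% ± 9.47 of Rpl8 counts with human, 18.8% ± 6.67 with squirrel monkey and 10.3% ± 2.44 with macaque microbiota (SD), a ratio that library scaling cannot move. This pair was picked after the values were seen, so the ratio is a description.

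Genes for proteins of the bridges between the subunits also divided, with some past the threshold and others not. The differences between these genes were not tested. Rpl24, on the face turned to the small subunit, averaged 66.2 ± 19 CPM with human, 49.3 ± 15.7 with squirrel monkey and 27.3 ± 6.91 with macaque microbiota. The lowest, median and highest mice were at 30.8, 71.5 and 97.8 CPM with human, 33.2, 46.5 and 75 with squirrel monkey and 15, 29.2 and 36.1 with macaque microbiota, so 11 of 12 human-microbiota mice were above all macaque-microbiota mice. Its log2 fold change was 1.27 ± 0.16 for human over macaque (edgeR adjusted p = 7.1e-07) and 0.83 ± 0.18 for squirrel monkey over macaque (adjusted p = 0.021). Rpl19, which reaches from the tunnel side to another bridge, was at 125 to 275 CPM with human, 111 to 227 with squirrel monkey and 61.3 to 112 with macaque microbiota. The human and macaque ranges of Rpl19 did not meet, and its log2 fold changes over macaque were 1.10 ± 0.12 with human (adjusted p = 9.0e-08) and 0.66 ± 0.14 with squirrel monkey microbiota (adjusted p = 0.013). Rpl41, a very short protein at the subunit interface and the gene with the most counts of the family, averaged 1579 ± 228 CPM with human, 1672 ± 124 with squirrel monkey and 1659 ± 217 with macaque microbiota, a human over macaque log2 fold change of -0.07 ± 0.07 (adjusted p = 0.59). Rpl32, another gene with many counts, was at 675 ± 82.5, 690 ± 50.1 and 669 ± 67.6 CPM with human, squirrel monkey and macaque microbiota, and all groups overlapped.

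Around the exit tunnel, Rpl23a, which docks the signal recognition particle at the tunnel's rim, was higher with human than with macaque microbiota. Rpl23a averaged 82.6 ± 24.3 CPM with human, 60.8 ± 26.7 with squirrel monkey and 38.5 ± 6.87 with macaque microbiota, with a log2 fold change of human over macaque of 1.11 ± 0.16 (edgeR adjusted p = 1.4e-05). Rpl31, another rim protein, was at 107 ± 18.4, 83.6 ± 17.8 and 61.6 ± 8.34 CPM with human, squirrel monkey and macaque microbiota, a human over macaque log2 fold change of 0.81. Rpl17, which lines the tunnel, had a log2 fold change of 0.73 (adjusted p = 0.00041), but 30.1% of the reads of Rpl17 and its -ps rows fell on the -ps rows, so its level is uncertain. Rpl4, the other main protein of the tunnel wall, was higher by a small step, with 606 ± 32.9 CPM with human, 575 ± 46.0 with squirrel monkey and 533 ± 36.9 with macaque microbiota (human over macaque 0.19 ± 0.05, adjusted p = 0.0072). Rpl26, Rpl38 and Rpl39, also at the tunnel, had log2 fold changes of 0.09, 0.05 and 0.11 that did not pass the test. Rpl35, Rpl23a's neighbour at the rim, lay on the other side of 0, with 174 ± 44.7 CPM with human, 200.2 ± 26.4 with squirrel monkey and 209 ± 31.9 with macaque microbiota (human over macaque -0.27 ± 0.10, adjusted p = 0.10).

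The stalk genes showed such a split within 1 structure, and they too were not tested against each other. Rplp1 and Rplp2 encode the acidic proteins that bind as dimers to Rplp0, the base of the stalk. Rplp1 was at 628, 764 and 884 CPM in the lowest, median and highest human-microbiota mouse, at 507, 600 and 776 CPM with squirrel monkey and at 461, 515 and 567 CPM with macaque microbiota. Every human-microbiota mouse was above every macaque-microbiota mouse, and the human over macaque log2 fold change was 0.58 ± 0.06 (edgeR adjusted p = 4.9e-08). Rplp2 went the other way in its means, 483 ± 110 CPM with human, 560 ± 63.7 with squirrel monkey and 572 ± 78.3 with macaque microbiota, with a log2 fold change of -0.24 ± 0.09 that did not pass the test (adjusted p = 0.093). Without the human-microbiota mice of batch B, Rplp2 and Rpl35 passed it as lower, at -0.41 and -0.52, and 1 or both did so when human-microbiota replicate 8, 11 or 12 alone was left out. Rplp0 averaged 202 ± 24.6, 200.4 ± 18.6 and 189 ± 25.3 CPM with human, squirrel monkey and macaque microbiota (human over macaque 0.10, adjusted p = 0.39).

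Rpl5 and Rpl11 bind the 5S ribosomal RNA and, when free, the p53 inhibitor Mdm2. Rpl11 was at 76.6 to 134 CPM with human, 68.1 to 114 with squirrel monkey and 53.5 to 73.1 with macaque microbiota, so the human and macaque ranges did not meet. Its log2 fold changes over macaque were 0.75 ± 0.09 with human (edgeR adjusted p = 3.0e-07) and 0.42 ± 0.10 with squirrel monkey microbiota (adjusted p = 0.038). Rpl5, the tested member with the fewest counts, averaged 11.9 ± 3.79 CPM with human, 9.11 ± 3.88 with squirrel monkey and 6.96 ± 1.96 with macaque microbiota, with a human over macaque log2 fold change of 0.78 ± 0.20 (adjusted p = 0.010). Every stretch of 50 bases at the 3′ end of its annotated transcript also occurs in another gene's transcript, so its level is uncertain. Of 13 listed p53 targets that were tested, Bax, a promoter of cell death, was higher with human than with macaque microbiota (0.82 ± 0.18, adjusted p = 0.0031), and the other 12 did not pass, where 4.47% of all genes were higher.

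Other genes of the family among the largest differences were Rpl28, whose protein is absent from budding yeast, Rpl13 and Rpl27. Rpl28 was at 47.7, 80.0 and 92.3 CPM in the lowest, median and highest human-microbiota mouse, at 41.2, 50.7 and 95.4 CPM with squirrel monkey and at 24.1, 34.1 and 41.6 CPM with macaque microbiota. The human and macaque ranges did not overlap, and the log2 fold change over macaque was 1.20 ± 0.12 with human (edgeR adjusted p = 4.9e-08) and 0.80 ± 0.14 with squirrel monkey microbiota (adjusted p = 0.0032). Rpl13 averaged 152 ± 40.5, 110 ± 36.5 and 68.0 ± 10.9 CPM with human, squirrel monkey and macaque microbiota, and Rpl27 averaged 49.8 ± 11.5, 41.7 ± 11.1 and 22.6 ± 3.99 CPM. For each of them 11 of 12 human-microbiota mice were above the highest macaque-microbiota mouse, at human over macaque log2 fold changes of 1.16 and 1.14. Rpl13a, which also has roles outside the ribosome in silencing of inflammatory mRNAs, was close to the threshold, with 578 ± 45.5 CPM with human, 549 ± 43.6 with squirrel monkey and 517 ± 39.0 with macaque microbiota (0.16 ± 0.05, adjusted p = 0.036).

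Paralogues did not share 1 pattern with their parent genes. Rpl36al, an autosomal relative of the X-linked Rpl36a, averaged 51.7 ± 16.9 CPM with human, 38.0 ± 14.3 with squirrel monkey and 25.9 ± 6.04 with macaque microbiota (human over macaque 0.99 ± 0.17, edgeR adjusted p = 0.00017). Rpl36a itself was at 32.8 ± 6.12, 29.4 ± 6.43 and 24.7 ± 6.08 CPM with human, squirrel monkey and macaque microbiota, a smaller human over macaque log2 fold change of 0.41 (adjusted p = 0.036). Rpl22l1 was higher with human microbiota, at 182 ± 34.0 CPM against 173 ± 24.3 with squirrel monkey and 146 ± 18.4 with macaque microbiota (0.31 ± 0.08, adjusted p = 0.016), while its parent Rpl22, an RNA-binding protein on the surface of the subunit, had a log2 fold change of 0.04 (adjusted p = 0.77). Rpl7 was at 131 ± 18.8, 113 ± 33 and 81.4 ± 10.1 CPM with human, squirrel monkey and macaque microbiota (human over macaque 0.68, adjusted p = 1.2e-05), and Rpl7l1 had a log2 fold change of 0.04 (adjusted p = 0.84). The differences between a paralogue and its parent were not tested. The 6 genes under the filter held few counts over all 32 mice: 9 for Rpl10l and 14 for Rpl39l, both known from testis, 19 for Rpl3l, known from muscle, 11 for Rpl6l, 96 for Rpl32l and 230 for Rpl37rt. They entered no test.

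**Figure D2:**
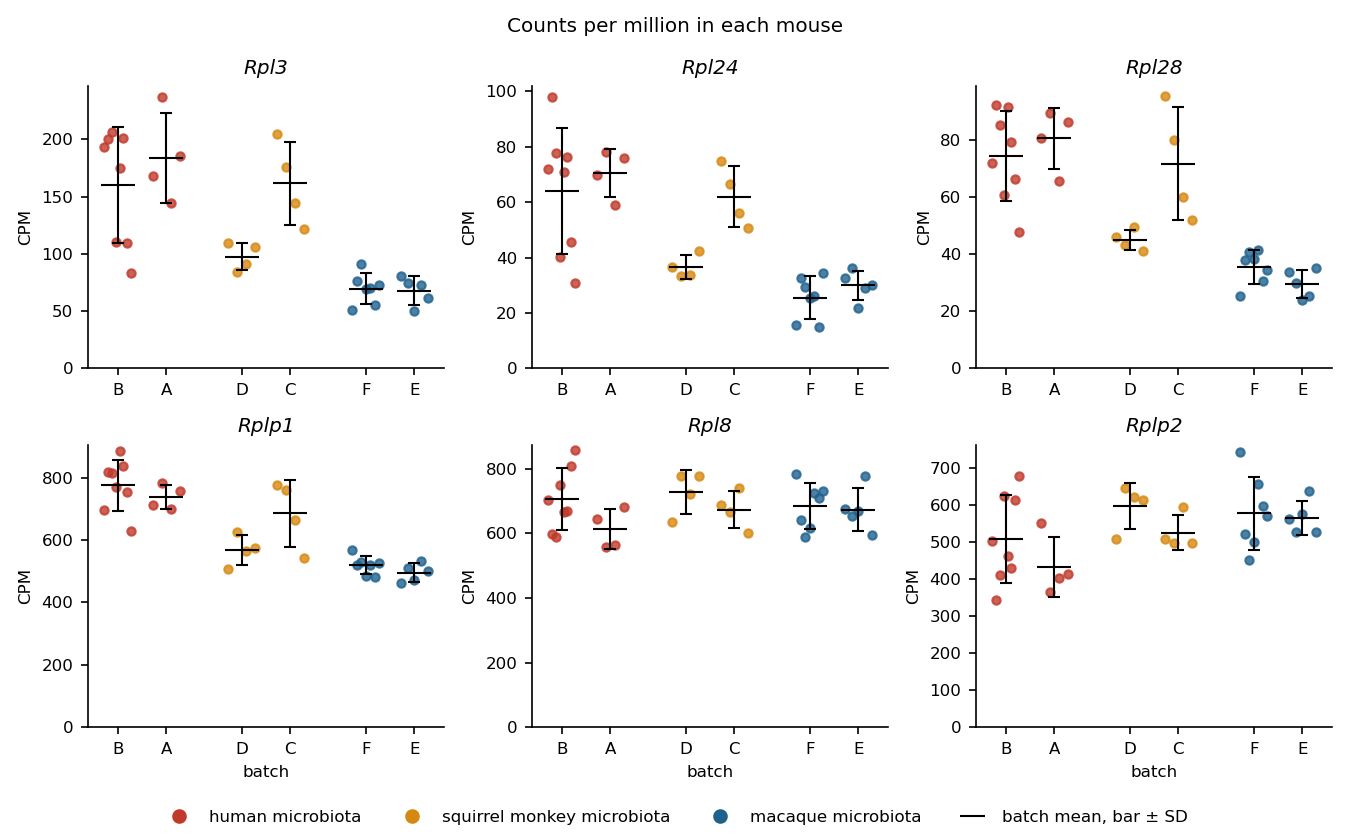
Level in CPM (y axis, from 0) of 6 large subunit protein genes in each mouse (points), by batch (x axis), with the batch mean and SD in black; human microbiota in red, squirrel monkey in orange, macaque in blue. For Rpl3, Rpl24, Rpl28 and Rplp1 the squirrel monkey batch C reaches into the human range, and the mean of batch D lies nearer the macaque batch means. Mice of batch D also lie within the human range for Rpl3, Rpl24 and Rpl28. Rpl8 and Rplp2 have overlapping groups.

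With squirrel monkey rather than macaque microbiota, 11 of the 49 genes were higher and 0 lower at an adjusted p under 0.05, against 0.387% of all genes higher and 0.253% lower. At an unadjusted p under 0.05 there were 26, all of them higher, against 13.2% of all genes in either direction. The 11 were Rpl3, Rpl27, Rpl24, Rpl28, Rpl13, Rpl19, Rpl7, Rpl31, Rpl11, Rpl37 and Rplp1. Rpl27 had a log2 fold change of 0.87 and Rpl37 of 0.37, and the median over the 49 genes was 0.20. Both squirrel monkey batch means lay above both macaque batch means for 30 genes (61.2%), against 20.8% of all genes, but every squirrel monkey-microbiota mouse lay above every macaque-microbiota mouse for 0 genes, against 0.0237% of all genes. The count depended on single batches and mice. Without batch C it was 0, at a median log2 fold change of 0.10, without batch D 17, without batch E 2 and without batch F 0. It was 4 without squirrel monkey-microbiota replicate 1 or 2, 7 without replicate 3, and 6 with batch as a random block in limma voom. This comparison shares its macaque-microbiota mice with the one above.

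Between human and squirrel monkey microbiota, edgeR called 0 of the 49 genes higher and 0 lower, against 0.0158% and 0.119% of all genes. At an unadjusted p under 0.05 there were 14 genes in edgeR (1267 of all 12651 genes), 15 in DESeq2 and 20 in limma voom, and after adjustment DESeq2 called 3 genes higher and limma voom with sample weights 5. The closest in edgeR was Rplp1, with a log2 fold change of 0.29 ± 0.07 (adjusted p = 0.061), and the median over the 49 genes was 0.07. Without batch C, 13 genes were called higher, and without human-microbiota replicate 12, 5 were. The F-test over the 3 groups called 24 of the 49 genes, against 6.15% of all genes, and 15 without batch F.

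The squirrel monkey batches differed from each other in these genes, although both received microbiota of the same donor species. Of the 49 genes, 38 had a lower mean in batch D than in batch C, and the median log2 fold change of D over C was -0.17, against -0.0022 over all genes. Rpl3 averaged 97.6 CPM in batch D and 162 CPM in batch C. Rpl36al averaged 26.4 CPM in batch D and 49.7 CPM in batch C, and Rpl28 45.0 CPM in batch D and 71.7 CPM in batch C. In batch C these means were near those of the human-microbiota mice, and in batch D between them and those of the macaque-microbiota mice or, for Rpl36al, next to the macaque-microbiota mean of 25.9 CPM. With 4 mice a batch, 0 genes passed an adjusted p under 0.05 as higher or lower in D than in C, as did 0% of all genes, and the smallest adjusted p among the 49 was 0.40. At an unadjusted p under 0.05 there were 20 of the 49, all of them lower in D, against 6.98% of all genes, and DESeq2 and limma voom also called 0 after adjustment.

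The difference between the squirrel monkey batches, in which no gene passed the adjusted test, was set beside that between human-microbiota and macaque-microbiota mice. These comparisons have no mouse in common. All 28 genes called higher with human than with macaque microbiota had a lower mean in batch D than in batch C, with a median log2 fold change of D over C of -0.37, and of the 21 other genes 10 did, with a median of 0.02. Across the 49 genes, Spearman's rho between both log2 fold changes was -0.89 and Pearson's r -0.90. Over all 12651 genes, rho was -0.12. These are descriptions, since the points share each gene's depth and read position and genes are not independent replicates.

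**Figure D3:**
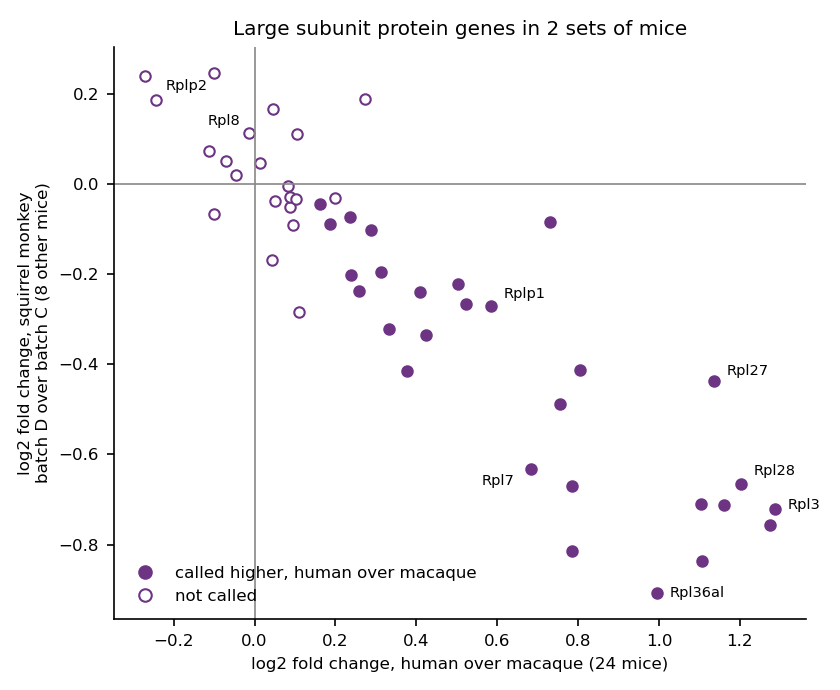
Log2 fold change of human over macaque microbiota (x axis, 24 mice) against the log2 fold change of squirrel monkey batch D over batch C (y axis, 8 other mice) for the 49 tested genes, filled where human over macaque passed an adjusted p under 0.05. The points run from the upper left (Rplp2) to the lower right (Rpl3, Rpl36al), and all 28 filled points lie below 0 on the y axis.

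The other pairs of batches of the same donor species differed less in the median over the 49 genes. Between the human batches the median log2 fold change of B over A was 0.03, with 26 values positive and 23 negative. Of the 49 genes, 0 were called higher (0.0237% of all genes) or lower (0%). At an unadjusted p under 0.05 there were 5, against 11.6% of all genes. Rpl3, Rpl24, Rpl28 and Rpl13, high for human over macaque, were at -0.20, -0.14, -0.11 and -0.23 for B over A. Rplp2, Rpl35 and Rpl8, below 0 for human over macaque, were at 0.23, 0.36 and 0.20. These genes were picked after the values were seen. The correlation with human over macaque was calculated for D over C only. Between the macaque batches the median of F over E was 0.03, with 0 called higher (0%) or lower (0%) and 0 at an unadjusted p under 0.05, against 3.15% of all genes. Rpl3 averaged 160 CPM in batch B and 184 CPM in batch A, and 69.4 CPM in batch F and 68.0 CPM in batch E. Within batch B, however, mice differed. The human-microbiota replicates 8, 11 and 12 had the lowest Rpl3, at 110, 109 and 83.6 CPM, and the highest Rpl8, at 750, 811 and 859 CPM. The same mice had the highest Rplp2, at 624, 614 and 677 CPM, and the other 9 human-microbiota mice lay between 145 and 237 CPM for Rpl3. These mice were noticed after the values were seen and form no group.

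Counted over the family, a mouse had between 21 and 45 of the 49 genes above their median of the 32 mice with human microbiota (median 33), between 5 and 43 with squirrel monkey microbiota (median 31) and between 1 and 25 with macaque microbiota (median 14). In batch D the count was 5 to 35 (median 25) and in batch C 19 to 43 (median 40.5). The human-microbiota mice with low Rpl3 were not low in this count: replicates 8 and 11 had 45 genes above the median and replicate 12 had 33. The biological coefficient of variation between mice of a group had a median of 12.1% over the 49 genes (7.37% to 26.5%), against 12.2% over all genes.

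**Figure D4:**
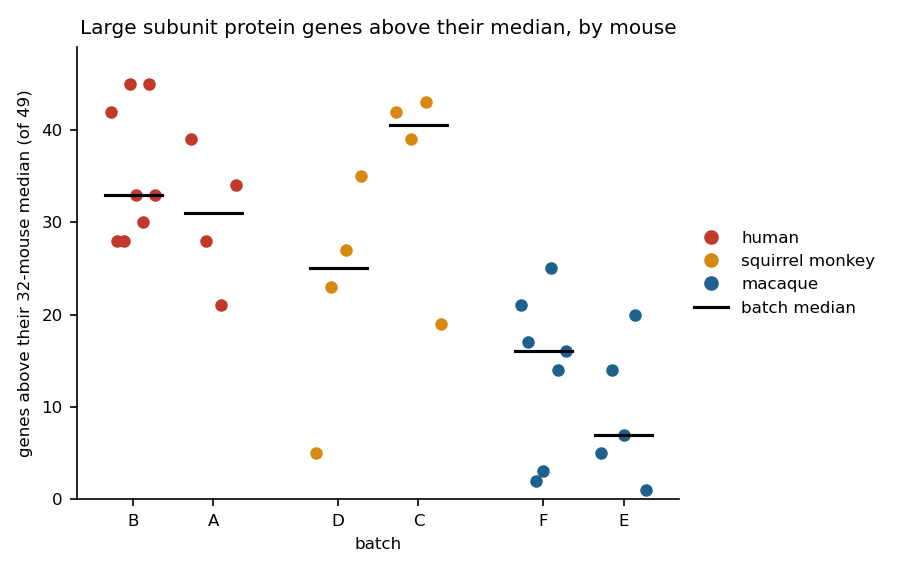
Number of the 49 tested large subunit protein genes that lay above their own median over 32 mice (y axis), for each mouse (points) by batch (x axis), with the batch median as a black line; human microbiota in red, squirrel monkey in orange, macaque in blue. Macaque-microbiota mice have 1 to 25 genes above the median and human-microbiota mice 21 to 45.

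Genes of the neighbouring steps of translation were read from lists of known components, as counts without a test of the list, beside the 4.47% of all genes higher and 3.54% lower with human than with macaque microbiota. Of 36 small subunit protein rows tested, 17 were higher and 0 lower with human than with macaque microbiota (median log2 fold change 0.20), and 12 were higher and 0 lower with squirrel monkey than with macaque microbiota, against 0.387% and 0.253% of all genes. Among the 4 of smallest p were Rps6, the target of S6 kinases, at 1.24 ± 0.14 for human over macaque (edgeR adjusted p = 1.3e-07), the ubiquitin fusion Rps27a at 1.21 and Rps20 at 1.06. Among the 4 of smallest p for squirrel monkey over macaque was Rps16, at 1.07 ± 0.19 (adjusted p = 0.0032). That list of 36 rows was formed by symbol and includes Rps19bp1, which is no ribosomal protein and had a log2 fold change of -0.02.

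Of 9 elongation factor genes, Eef2, Eef1a2 and Eef1g were higher with human than with macaque microbiota, at 0.43, 0.77 and 0.43, and 0 were lower. Of 36 initiation factor genes, 5 were higher and 4 lower, among them the helicase gene Eif4a1 at 0.42 and the scaffold gene Eif4g1 at -0.23. Of 18 other genes with 5′TOP mRNAs, Eef2 and Eif3h were higher and 0 lower, and the list's median was 0.02. Of 40 genes for assembly of the large subunit, Fbl, the methyltransferase fibrillarin, was higher at 1.14 ± 0.16 (edgeR adjusted p = 5.0e-06) and 0 were lower, and the list's median was -0.04. Of 48 mitochondrial large subunit genes Mrpl33 was higher, at 0.26, and of 22 genes for ribosomal RNA synthesis and its control the initiation factor gene Rrn3, at 0.27, with 0 lower in each list. With squirrel monkey against macaque microbiota, 0 genes of these lists other than the small subunit list were called in either direction. Between human and squirrel monkey microbiota Ncl, nucleolin, was lower with human microbiota (-0.29 ± 0.06, adjusted p = 0.035) and 0 others were called.

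Depth and cell type markers moved with the groups in part. The median library total was 1657170 counts with human, 1482520 with squirrel monkey and 1503730 with macaque microbiota. With the library total as a covariate 25 of the 49 genes were called higher with human than with macaque microbiota, 24 of them among the 28. The 4 oligodendrocyte markers Mbp, Mog, Mag and Mobp summed to 396 to 5524 CPM with human (median 629), 449 to 2883 with squirrel monkey (median 935) and 317 to 1720 with macaque microbiota (median 467), and 1 of the 4 was called higher with human than with macaque microbiota, at a median log2 fold change of 1.30 over the 4. In batch D their sum had a median of 566 CPM and in batch C of 1178 CPM. Single mice of the human-microbiota group varied. Human-microbiota replicate 12 had the highest sum, 5524 CPM, and the lowest Rpl3 of its group. Human-microbiota replicate 9 had the lowest sum, 396 CPM, and 175 CPM of Rpl3. The other mice of this group named for low Rpl3, replicates 8 and 11, had sums of 403 and 405 CPM, also among its lowest. Of 4 meningeal fibroblast markers tested, 1 was called higher with human and 1 with squirrel monkey than with macaque microbiota, at medians of 0.37 and 0.32, and of 4 red cell markers 0 were called, at medians of 0.44 and 0.76. Of the 4 cortical excitatory markers, 1 was called higher and 1 lower with human, and 1 lower with squirrel monkey, than with macaque microbiota. In the other lists, 1 of 5 inhibitory neuron and 1 of 5 endothelial markers were called higher and 1 of 4 general neuron markers lower with human than with macaque microbiota. The part of cell type makeup in the results was not tested, and in bulk tissue fewer cells of a type and less RNA per cell cannot be told apart. Every marker gene of the 12 lists that the table holds had counts in all 3 groups.

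Ribosomal protein genes have many processed copies in the genome, and TagSeq reads, which come from near the 3′ end, may fit a copy as well. In GENCODE M21, the last 300 bases of 32 of the 49 genes matched another gene's transcript over 100 or more bases. The match was at 95% identity or more, on either strand, and is called a copy here. Genes that overlap at the same place were not left out, so a copy need not be a processed one. For Rpl31 and Rpl5 the only copy, 1 each, was no pseudogene, and Tbc1d8 and Fam69a overlap them on the opposite strand. Of these 32 genes 18 were called higher with human than with macaque microbiota, and of the 17 without a copy 10 were, among them Rpl28, Rpl11, Rpl37, Rpl27a, Rpl6 and Rpl15. The median log2 fold change was 0.30 with and 0.19 without a copy. Of the 50-base stretches in these last 300 bases, a median of 67.9% also occurred in another gene's transcript for the 28 called genes and of 29.1% for the 21 others, with a rho of 0.29 across the 49 genes between that share and the fold change. The part of shared sequence in the result was not tested. For Rpl5, Rpl9, Rpl10, Rpl31 and Rpl36a every stretch of 50 bases within these last 300 also occurs in another gene's transcript, and their levels are uncertain. When counts of -ps rows were added to those of their gene, 29 genes were called, the 28 among them. A gene on the opposite strand overlapped 15 of the 49 genes, Syngr1 for Rpl3, Ube2s for Rpl28, Tbc1d8 for Rpl31 and Tlcd1 for Rpl23a among them, and no source used here gives the use of strand in counting, so these levels are uncertain. Another gene on the same strand, often a small nucleolar RNA in an intron, overlapped 23, and 17 genes, such as Rpl7, Rpl11, Rpl27, Rplp1, Rpl8 and Rpl41, had neither kind.

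Called genes had fewer counts than the others. The median of the mean level was 92.6 CPM for the 28 genes higher with human than with macaque microbiota and 327 CPM for the 21 that did not pass, and across the 49 genes Spearman's rho between mean level and log2 fold change was -0.51. Here CPM is a count of 3′ tags not divided by length, so it orders the genes by the reads behind each value. Transcript length had a rho of -0.03 with the fold change and the number of copies a rho of 0.24. Rplp1, with a mean of 634 CPM, and Rpl37, with log2 fold changes of 0.58 and 0.50, were called among genes of many counts, and Rpl10, with 24.5 CPM, was not called among those of few. These correlations are across genes that share libraries, and their part in the result was not tested.

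**Figure D5:**
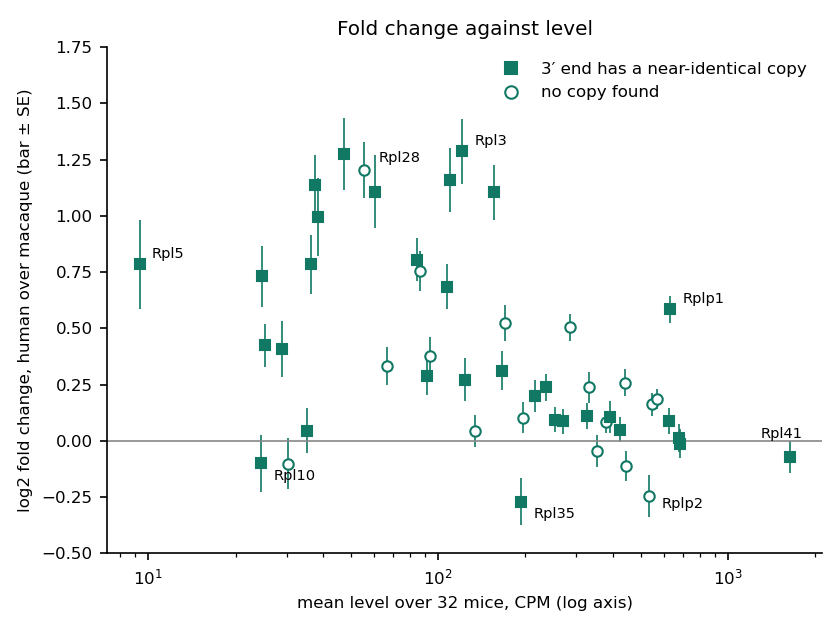
Log2 fold change of human over macaque microbiota with its standard error (y axis, point and bar) for the 49 tested genes. The x axis gives the mean level over 32 mice in CPM (log scale). Filled squares mark genes whose 3′ end has a near-identical match in another gene's annotated transcript, overlapping genes included. Open circles mark genes where none was found. The 8 values of 0.99 and above lie between Rpl27 at 37.6 CPM and Rpl19 at 156 CPM, and Rpl41, at 1632 CPM, lies near 0.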

How the data were processed

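Frontal cortex RNA of 32 mice was sequenced with TagSeq, which reads near the 3′ end of polyadenylated transcripts, per the labels' protocols. The authors deposited 1 table of raw counts per Ensembl gene, as whole numbers whose totals differ between mice. The submitters' processing notes name GRCm39; aligner, counter, annotation and handling of duplicate reads have no source here. A further 3 columns matched no sample and were not used.

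Low counts were removed with edgeR's filterByExpr by donor group (at least 10 counts, total 15). Libraries were scaled by TMM (factors 0.955 to 1.04) and tested with edgeR 4.0.16 in R 4.3.3 by the quasi-likelihood test, with donor group alone in the model. A second fit took the 6 batches as groups. Adjustment was by Benjamini-Hochberg across all 12651 genes tested, with a threshold of 0.05. Log2 fold changes carry their standard error (SE). The common biological coefficient of variation was 13.8%. The script was tested on simulated data. In 160 same-species pairs, chi-square per degree of freedom was 1.41 to 7.24, so no library was treated as a repeat.

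Alternatives were DESeq2 1.42.0, limma 3.58.1 (voom), other scalings and filters, batch as a random block, counts summed per batch, a depth covariate, sums with -ps rows, and leaving out each batch or mouse. The genes and lists were chosen with earlier results of these data known. The rule for names took the 8 called genes of largest fold change per comparison, the 3 of most and the 3 of fewest counts, genes fixed by role, and from each list up to 4 called genes of smallest p. Rpl35, Rpl37, Rpl15, Rpl27a, Rpl6 and the human-microbiota mice named singly were picked after their values were seen. Copies were searched with blastn 2.17.0 in GENCODE M21 transcripts (GRCm38), and starts come from RefSeq (GRCm38.p6); both differ from the build of the counts. Starts on 1 chromosome and some genes of the lists are not reported here, and marker sums leave such genes out.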

Additional observations from a re-analysis of the deposited data

Results flagged for a closer look

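In 2 of the 29 named large subunit protein genes examined in the squirrel monkey-microbiota group, 1 mouse stood far from the other 7 by Dixon's criterion, which chance meets in about 1 of 20 groups. Rpl36a was at 14.6 CPM in squirrel monkey-microbiota replicate 5 (batch D), below the rest of its group, which reached 35.1 CPM. Rpl7 was at 182 CPM in squirrel monkey-microbiota replicate 1 (batch C), above the rest of its group, in which the lowest mouse was at 83.0 CPM. Without that mouse, 4 in place of 11 genes of the family were called higher with squirrel monkey than with macaque microbiota. Groups of 12 mice were not examined in this way.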

How the results depend on the processing

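The 28 genes called higher with human than with macaque microbiota were all called under DESeq2's test, DESeq2's size factors, library totals, TMM without ribosomal protein genes, a filter at 5 CPM, sums with -ps rows, voom with sample weights and voom with batch as a random block. With batch as a random block, the correlation of mice in a batch was 0.0053, 1 value for all genes. That fit could take up little of a batch difference particular to these genes. Counts summed per batch gave 18 genes higher with human than with macaque microbiota. Leaving out batch E gave 18 and batch F 17, and leaving out batch B kept 19 of the 28. In that comparison 1 gene was called lower by voom with sample weights and 2 without batch B. With squirrel monkey against macaque microbiota the count of higher genes was 6 with batch as a random block, 7 with sums per batch, 0 without batch C (median log2 fold change 0.10), 17 without batch D, 2 without batch E and 0 without batch F. With human against squirrel monkey microbiota it was 3 in DESeq2, 5 in voom with sample weights, 1 with batch as a random block and 13 without batch C. The F-test called 15 genes without batch F.

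Leaving out single mice gave 24 to 30 genes higher and 0 to 2 lower for human against macaque, 4 to 12 higher for squirrel monkey against macaque and 0 to 5 higher for human against squirrel monkey microbiota. The 4 came without squirrel monkey-microbiota replicate 1 or 2, the 5 without human-microbiota replicate 12, and the genes called lower were Rplp2 and Rpl35, without human-microbiota replicates 8, 11 or 12. Rpl13a lost its human against macaque call in 12 and Rpl36a in 10 of these removals. The cause of these moves was not tested, other than that fewer mice entered. No called value of a named gene changed sign. No paired analysis was possible because the replicate numbers follow accession order and pair no mice across groups. Depth limits the values of Rpl5 and of the 6 genes under the filter most.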
